A study of Mus musculus with 6 samples.

Results

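The elastic fibre genes described here are 10 of the 24940 genes in a table of exon counts from primary mouse hepatic stellate cells. They were chosen by symbol, with earlier results of these data known. The list holds the fibulin genes Fbln1, Fbln2, Fbln5, Efemp1 and Efemp2 and the elastin gene Eln. It also holds the fibrillin genes Fbn1 and Fbn2 and the microfibril-associated genes Emilin1 and Mfap4. Stellate cells are pericytes of the liver sinusoid that store vitamin A, and after injury they are a main source of scar matrix. The donors were female C57BL/6JBomTac mice of unstated age. No transgene or deletion is stated, and treatment began 2 days after isolation. One group of 3 libraries (A, B and C) received 10 µM obeticholic acid (OCA), a modified bile acid that is an agonist of the nuclear receptor FXR. The other group of 3 libraries (A, B and C) received the same volume of the solvent DMSO. Both groups were harvested after 6 hours, and polyadenylated RNA was sequenced. Whether libraries A, B and C of a group are separate animals or separate cultures is not stated in the labels, so each p-value reflects library-to-library spread only, part or all of which may be technical.

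Elastic fibres are built from a core of cross-linked elastin on a scaffold of microfibrils. Fibrillins polymerise into the microfibrils, and EMILINs sit at the interface of core and scaffold. Fibulins bridge elastin, fibrillin and the lysyl oxidases that cross-link elastin. In the liver such fibres lie in portal tracts and vessel walls and build up in fibrotic septa, where stellate cells and portal fibroblasts are the known producers. The microfibril scaffold also holds latent TGF-beta through its binding proteins.

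Counts were scaled for library size to CPM with edgeR's TMM factors, and the groups were compared with edgeR's quasi-likelihood test over 12687 genes with Benjamini-Hochberg adjustment. A gene was called at an adjusted p under 0.05. Changes are given as log2 of OCA over DMSO with a standard error (SE), and levels as mean ± SD over n = 3 libraries. Library totals lay between 12260882 and 16336240 counts. Of the 10 genes, 7 passed the filter on low counts and were tested. Fbln1, Fbn2 and Mfap4 did not pass. Of the 7 tested genes 4 were called lower with OCA (Fbln2, Fbln5, Efemp1 and Fbn1), 0 were called higher and 3 were not called (Efemp2, Emilin1 and Eln). Over all tested genes 3.03% were called lower and 2.18% higher. At an unadjusted p under 0.05, 1 tested member was higher, Eln, as were 8.26% of all tested genes. The median log2 change of the 7 genes was -0.45, and over all tested genes it was 0.00076. Since the members were chosen with earlier results known, their counts and median are descriptions and not independent evidence. The 4 calls depend on the test used. Beside edgeR, limma-voom called all 4 (3.18% of all genes lower). DESeq2 (3% lower) and edgeR with robust estimation (2.73% lower) called 0 of them. At an unadjusted p under 0.05, DESeq2 had 4 members lower (9.52% of all tested genes) and robust edgeR 1 (10.4%). The test against a fold change of 1.5 ended every call of a lower gene in the table. In bulk RNA, fewer cells of a type and less RNA per cell cannot be told apart.

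Among the OCA libraries, B stood apart for the called genes. OCA B was the highest OCA library for all 4 genes called lower, and for 5 of the 7 tested genes, while it was the highest for 33.3% of all tested genes. Without OCA B, 5.9% of genes were called lower in place of 3.03%, and all 4 genes remained called. Portal fibroblasts and mesothelial cells, which also make elastic fibre proteins, were represented by 12 markers, of which 9 had a mean under 1 CPM and 5 were tested. 0 of the 5 were called by edgeR. The 12 summed to 5.44, 6.98 and 4.24 CPM in OCA libraries A, B and C, against 8.99, 8.24 and 7.97 CPM in the DMSO libraries. These sums were lower in every OCA library than in any DMSO library, and 11.3% of single tested genes showed the same. Of the 5 tested markers, Cd34 (log2 change -0.96), Entpd2 (-0.50) and Dpt (-1.37) lay below 0. Krt19 (0.16) and Wt1 (0.01) lay above 0, and only Cd34 separated the groups. Among the OCA libraries B had the highest sum of the 12 markers. OCA B also had the highest sums of stellate markers (2282 CPM) and activated myofibroblast markers (2846 CPM). The markers within these 2 sums did not move alike. In OCA A, B and C, the stellate marker Reln was at 261, 489 and 225 CPM, while Des was at 425, 419 and 429 CPM. The myofibroblast marker Col1a1 was at 701, 1017 and 716 CPM, while Acta2 was at 449, 446 and 465 CPM. For smooth muscle markers OCA A, B and C were close, at 209, 215 and 213 CPM. OCA A had the highest sums of hepatocyte (6.53 CPM, 2.65 in B) and endothelial markers (6.68 CPM, 4.64 in B). OCA C had the highest sum of macrophage and leukocyte markers (8.56 CPM, 7.94 in B). The defining portal fibroblast marker Thy1 had 0 counts in all libraries. The part of such cells in the result was not tested.

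**Figure D1:**
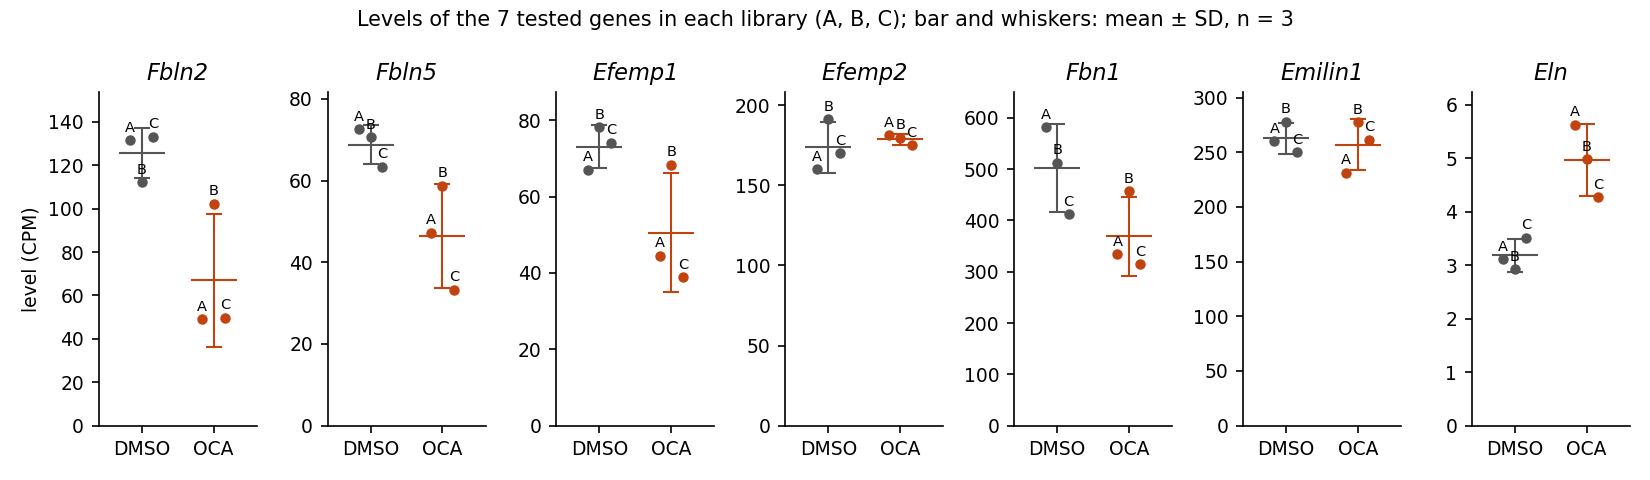
Level of each of the 7 tested elastic fibre genes in CPM, 1 panel per gene with its own axis from 0. Points are the libraries A, B and C of each group, and bars with whiskers are the mean ± SD (n = 3). OCA B is the highest OCA library for Fbln2, Fbln5, Efemp1 and Fbn1, while Eln lies higher in every OCA library than in any DMSO library.

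The sequence just upstream of 3 fibulin genes is shown because these members of 1 family were not called alike. Fbln5 and Efemp1 were called lower and Efemp2 was not called, and the difference between them was not tested. The bases come from RefSeq on GRCm38.p6 (mm10), read 5′ to 3′ on the gene's strand. Capitals mark the Sp1 box GGGCGG or its reverse complement CCGCCC, the site of a general promoter factor. Overlapping boxes run together as 1 stretch of capitals, and bases in annotated exons are left out. The stretches are chr12:101819120-101819369 (minus strand) for Fbln5, chr11:28852955-28853203 (plus strand) for Efemp1 and chr19:5474485-5474687 (plus strand) for Efemp2.
Fbln5: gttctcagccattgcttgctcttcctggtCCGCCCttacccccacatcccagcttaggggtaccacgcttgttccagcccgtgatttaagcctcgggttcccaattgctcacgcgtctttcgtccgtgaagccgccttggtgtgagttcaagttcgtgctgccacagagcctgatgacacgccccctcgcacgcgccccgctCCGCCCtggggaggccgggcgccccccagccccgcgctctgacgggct
Efemp1: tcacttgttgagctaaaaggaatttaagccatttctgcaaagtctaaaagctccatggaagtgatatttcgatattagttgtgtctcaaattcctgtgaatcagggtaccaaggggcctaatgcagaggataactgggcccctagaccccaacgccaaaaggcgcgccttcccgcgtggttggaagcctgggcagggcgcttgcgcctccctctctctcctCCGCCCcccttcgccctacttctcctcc
Efemp2: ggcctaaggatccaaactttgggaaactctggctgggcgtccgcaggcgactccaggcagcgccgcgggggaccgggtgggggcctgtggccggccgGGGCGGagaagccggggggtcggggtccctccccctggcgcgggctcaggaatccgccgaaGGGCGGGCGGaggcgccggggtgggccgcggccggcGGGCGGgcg
The Sp1 box occurred 2 times in the stretch of Fbln5, 1 time in that of Efemp1 and 4 times in that of Efemp2. In the whole window of 250 bases before the start, Efemp2 had 5 boxes, a GC content of 78.8% and 33 CpG dinucleotides. The windows had a GC content of 65.2% with 21 CpG for Fbln5 and 53.6% with 10 CpG for Efemp1. The median over 9864 tested genes with a sequence was 60.4% GC, with quartiles of 54.0% and 67.6%, and 17 CpG. A window at the table's start site was found for 7 of the 10 genes: Fbln1, Fbln2, Fbln5, Efemp1, Efemp2, Fbn1 and Emilin1. Of these 7, all but Emilin1 held an Sp1 box on either strand, and 62.1% of the 9864 windows did. By the GENCODE annotation, all 250 bases of the windows of Fbln2, Fbn1 and Emilin1 lie in exons, as do 59 bases of that of Fbln1 and 47 of that of Efemp2, so these windows are wholly or partly transcribed sequence. The sequence AGGTCA, which is part of a nuclear receptor element, was searched on both strands. It was in 9.92% of the windows and in none of the 7. Longer or inexact receptor elements were not searched. The AP-1 site TGANTCA was in the window of Efemp1 and in 3.92% of all, and the CCAAT box was in that of Fbln5 and in 36.6% of all. The TATA box TATAAA was in none of the 7 windows and in 5.78% of all. A match is a description of the letters, and these data hold no measurement of binding.

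Fbln2 had the largest decrease (log2 change) of the 7 tested genes. Fibulin-2 is a scaffold protein of basement membranes and elastic fibres that binds fibrillin-1 and tropoelastin. The gene (NM_007992, mm10 chromosome 6, 91212764 to 91272540, plus strand) has an exonic length of 4457 bases in the table. The 3 DMSO libraries, A to C, had 132, 112 and 133 CPM. The 3 OCA libraries had 49.0, 102 and 49.7 CPM. OCA A and C lay far below the DMSO libraries and OCA B lay just below the lowest of them, so the groups did not overlap. The mean fell from 126 ± 11.6 to 67.0 ± 30.6 CPM (log2 change -0.91, SE 0.18, adjusted p = 0.00416, edgeR quasi-likelihood test). The Fbln2 call held when any 1 of the 6 libraries was left out, with a log2 change between -1.35 without OCA B and -0.73 without OCA A. It was lost with DESeq2 (adjusted p = 0.127) and with robust estimation (adjusted p = 0.278).

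Fbln5 encodes fibulin-5, which tethers elastin to microfibrils and to integrins of the cell surface and is required for normal elastic fibres. The gene (NM_011812, chromosome 12, 101746565 to 101819119, minus strand) has 5880 exonic bases. DMSO libraries A, B and C had 72.5, 70.5 and 63.4 CPM, and OCA libraries A, B and C had 47.2, 58.8 and 33.3 CPM. The groups did not overlap, and OCA B was again the OCA library nearest to the DMSO ones. The mean fell from 68.8 ± 4.79 to 46.4 ± 12.8 CPM (log2 change -0.57, SE 0.13, adjusted p = 0.0148, edgeR). The call did not survive leaving out DMSO B (-0.55), DMSO A (-0.53), OCA C (-0.38) or OCA A (-0.58), nor a switch to DESeq2 (adjusted p = 0.139) or robust estimation (adjusted p = 0.199). It was also lost when a trend with counts per base was removed, alone (the density trend, adjusted p = 0.0537) or together with one on exonic length (0.0559).

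Efemp1 encodes fibulin-3, which elastic fibres of fascia need. The gene (NM_146015, chromosome 11, 28853205 to 28926743, plus strand) has 2023 exonic bases. DMSO libraries A, B and C had 67.0, 78.2 and 74.1 CPM, and OCA libraries A, B and C had 44.5, 68.4 and 38.9 CPM. OCA B lay above DMSO A, so the groups overlapped. The mean fell from 73.1 ± 5.63 to 50.6 ± 15.7 CPM (log2 change -0.53, SE 0.14, adjusted p = 0.0288, edgeR). The call remained in 1 of the 6 fits that left out a library, the fit without OCA B (-0.81). It was lost in the 5 others, with values of -0.44 and -0.37 without OCA A and OCA C and of -0.59, -0.48 and -0.52 without DMSO A, B and C, as well as with DESeq2 (adjusted p = 0.259) and with robust estimation (adjusted p = 0.302). Removing the density trend alone (adjusted p = 0.068) or with the length trend (0.0518) also ended it.

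Efemp2 did not pass the test. It encodes fibulin-4, which brings lysyl oxidase to tropoelastin and is essential for elastic fibre assembly in arteries and lung. The gene (NM_001164352, chromosome 19, 5474735 to 5481854, plus strand) has 1785 exonic bases. The DMSO libraries A, B and C had 160, 191 and 169.9 CPM, and OCA libraries A, B and C had 181, 179.6 and 175 CPM. The OCA libraries lay close together and inside the range of the DMSO libraries. The means were 174 ± 15.8 CPM with DMSO and 179 ± 3.29 CPM with OCA (log2 change 0.04, SE 0.07, adjusted p = 0.794, edgeR).

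Fbln1, the gene of the blood vessel and plasma fibulin, was near the detection limit. Its counts in DMSO libraries A, B and C were 4.5, 5 and 2.5, and those in OCA libraries A, B and C were 0, 2 and 2. The groups summed to 12 and 4 counts, a depth-scaled ratio of 0.374 with an exact 95% interval of 0.088 to 1.23. That interval covers counting error only and includes 1. A difference was not detectable at this depth.

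Of the fibrillin genes, Fbn1 had by far the more counts and Fbn2 had few. Fibrillin-1 is the main microfibril protein of adult tissue. The gene (NM_007993, chromosome 2, 125300594 to 125506438, minus strand) has 9832 exonic bases. DMSO libraries A, B and C had 581, 513 and 412 CPM, and OCA libraries A, B and C had 334, 457 and 315 CPM. OCA A and C lay below every DMSO library, and OCA B lay above DMSO C. The mean fell from 502 ± 85.3 to 369 ± 77.0 CPM (log2 change -0.45, SE 0.12, adjusted p = 0.0377, edgeR). Leaving out DMSO A (-0.33), OCA C (-0.35), OCA A (-0.38) or DMSO B (-0.43) ended the call. It was also lost with DESeq2 (adjusted p = 0.265), with robust estimation (adjusted p = 0.305) and when a trend with exonic length was removed (-0.27, adjusted p = 0.113). The same held for a trend with counts per base, the density trend (adjusted p = 0.063), and for both trends together (0.0679). The opposite-strand gene Gm9913, which has no row in the count table, overlaps 20.1% of the annotated exon bases of Fbn1. No source used here gives the strand setting, so reads in the overlap cannot be assigned to Fbn1 or Gm9913. That share is over all annotated Fbn1 exons, and the share of the counted transcript was not measured.

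Fbn2, the fibrillin of developing tissue, had 0, 5.5 and 0.5 counts in OCA libraries A, B and C and 0, 0.5 and 3.5 in the DMSO libraries. Of its 6 OCA counts nearly all came from OCA B. Against 4 DMSO counts, the depth-scaled ratio was 1.68, with an interval of 0.399 to 8.11. Mfap4, a microfibril-associated protein that binds elastin and collagen, had 0 counts in all 6 libraries. A count of 0 allows up to 3 counts over a group, which is 0.0767 CPM with OCA and 0.0683 CPM with DMSO.

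Emilin1 did not pass the test. EMILIN-1 sits at the surface of the elastin core and restrains TGF-beta processing. The gene (NM_133918, chromosome 5, 30913786 to 30921273, plus strand) has 3454 exonic bases. Levels in DMSO libraries A, B and C were 260, 278 and 250.2 CPM, and 231, 277 and 262 CPM in OCA libraries A, B and C. The groups overlapped, with means of 263 ± 14 and 257 ± 23.4 CPM (log2 change -0.03, SE 0.07, adjusted p = 0.843, edgeR).

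Eln, which encodes the elastin core itself, was the tested member with the largest positive log2 change, and it was not called. The gene (NM_007925, chromosome 5, 134702595 to 134747323, minus strand) has 3812 exonic bases. It had between 35 and 54 counts in the DMSO libraries and between 54.5 and 75 in the OCA libraries. DMSO libraries A, B and C had 3.11, 2.93 and 3.51 CPM, and OCA libraries A, B and C had 5.63, 4.98 and 4.28 CPM. Every OCA library lay above every DMSO library. Opposite-strand exons of Gm30003 overlap 3.30% of its annotated exon bases. The means were 3.18 ± 0.30 and 4.96 ± 0.676 CPM (log2 change 0.63, SE 0.27, unadjusted p = 0.0323, adjusted p = 0.212, edgeR). Over the 22 alternative settings its log2 change stayed between 0.53 and 0.73, and it was called in none. The groups did not overlap for 3 of the 7 tested genes: Fbln2 and Fbln5 with OCA lower and Eln with OCA higher. Over all tested genes, 11.3% had every OCA library below every DMSO library and 11.6% every OCA library above.

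**Figure D2:**
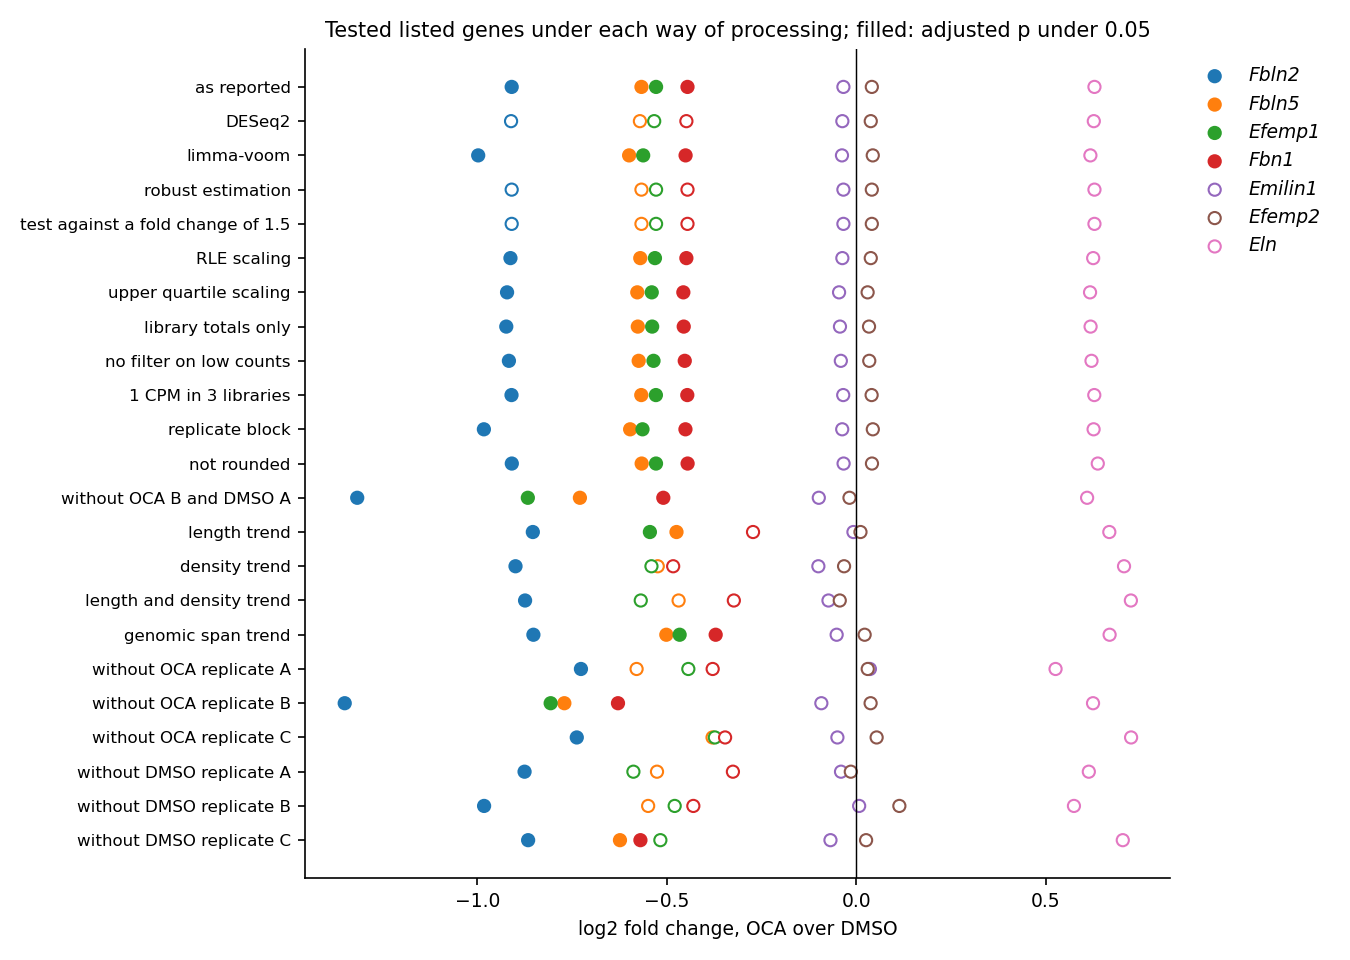
Log2 change (OCA over DMSO) of the 7 tested elastic fibre genes under each processing setting. Filled points were called at an adjusted p under 0.05 in that setting and open points were not. Fbln2 is called in every fit that leaves out 1 library, and the calls of Fbln5, Efemp1 and Fbn1 change with the library left out.

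Per kilobase of exonic length, the genes covered a wide range of levels. In DMSO, Efemp2 was the highest at 97.3 ± 8.85 CPM per kb, followed by Emilin1 at 76.1 ± 4.06 and Fbn1 at 51.1 ± 8.68. Then came Efemp1 at 36.1 ± 2.78, Fbln2 at 28.2 ± 2.60, Fbln5 at 11.7 ± 0.815 and Eln at 0.835 ± 0.0788. Fbln1 was at 0.0851 ± 0.0384, Fbn2 at 0.00863 ± 0.0116 and Mfap4 at 0. In DMSO only the neighbours Fbn2 and Mfap4 had overlapping ranges. The order of the means was the same with OCA, but the ranges of Fbn1 and Efemp1, of Efemp1 and Fbln2, of Fbln1 and Fbn2, and of Fbn2 and Mfap4 overlapped there. In OCA the means were 100.05 CPM per kb for Efemp2, 74.3 for Emilin1, 37.5 for Fbn1, 25 for Efemp1, 15.0 for Fbln2, 7.90 for Fbln5 and 1.3 for Eln. Eln lay below the other 6 tested genes and above Fbln1, Fbn2 and Mfap4 in both groups.

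Shares within the 5 fibulin genes show how the pool was made up. Their summed level was 173 ± 9.13 CPM per kb with DMSO and 148 ± 17.3 with OCA, with overlapping ranges. Efemp2 made up 54.5%, 58.5% and 55.2% of the sum in DMSO libraries A, B and C, and 71.2%, 60.1% and 73.1% in OCA libraries A, B and C. Its share lay higher in every OCA library than in any DMSO library, at 68.1 ± 7.03% against 56.0 ± 2.16%. The share of Fbln2 went from 16.3 ± 2.24% to 9.91 ± 3.30%, that of Efemp1 from 20.8 ± 0.621% to 16.7 ± 3.12% and that of Fbln5 from 6.76 ± 0.642% to 5.28 ± 0.927%. For Fbln2 the highest OCA share was 13.7%, in OCA B, and the lowest DMSO share was 13.8%, in DMSO B. These shares restate the levels above and were not tested. Relative to Efemp2 in the same library, Fbln2 stood at 0.293 ± 0.0502 with DMSO and 0.150 ± 0.0677 with OCA. Relative to Efemp1, Fbln5 did not separate the groups (0.326 ± 0.0411 and 0.319 ± 0.0404).

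**Figure D3:**
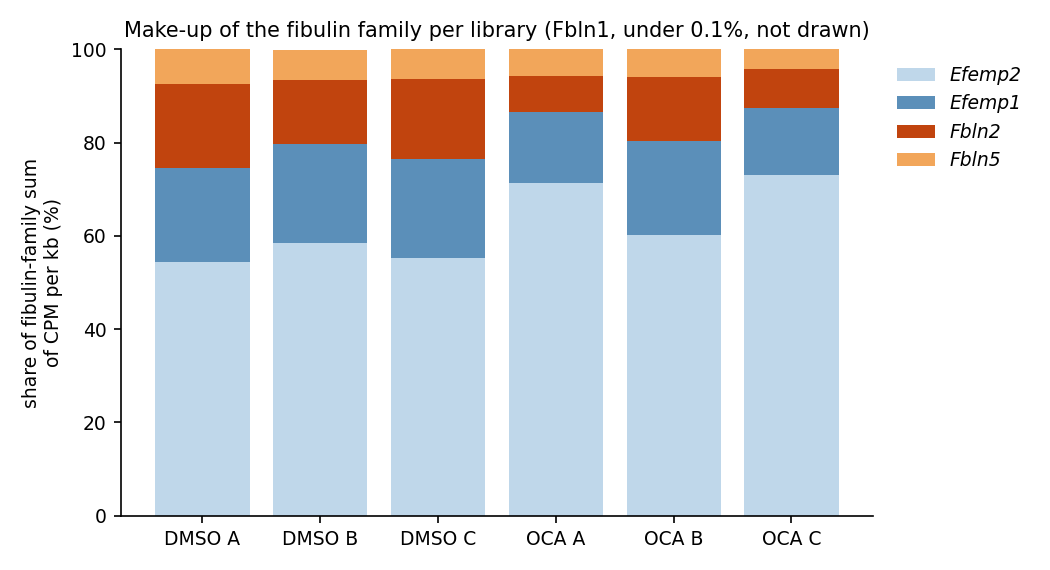
Share of each fibulin gene in the summed CPM per kb of the 5 fibulin genes, in percent, 1 stacked bar per library from 0 (Fbln1 is too low to draw). Efemp2 holds 54.5% to 58.5% in the DMSO libraries and 60.1% to 73.1% in the OCA libraries.

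The genes whose profiles over the 6 libraries lay closest to each called member were found by Euclidean distance between centred log2(CPM + 0.5) values, among 10734 genes with a mean of at least 5 CPM. For Fbln2 they were Ltbp4 (distance 0.263), Agrn (0.309) and Gadd45g (0.323), and the median distance over all genes was 1.53. For Fbln5 they were Pla2r1 (0.211), Manba (0.211) and Nid2 (0.234), with a median of 0.989. For Efemp1 they were Serping1 (0.180), Nucb1 (0.195) and Psap (0.215), with a median of 0.972. For Fbn1 they were Smg1 (0.159), Ptprj (0.168) and Cramp1l (0.172), with a median of 0.829. Of the nearest genes named here, only Ltbp4 was in a list of elastic fibre partners, and the others were in none. That list was chosen with earlier results of these data known, and shared regulation was not tested.

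The wider elastic fibre machinery was read from lists of related genes. These lists were chosen with earlier results of these data known, so their counts are descriptions and not independent evidence. Of 14 microfibril partners, 12 were tested, 2 were called lower, 0 higher, and 11 had a log2 change below 0 (median -0.41). Over all tested genes 3.03% were called lower and 49.8% had a log2 change below 0. Ltbp4, a latent TGF-beta binding protein that works with fibulin-4 and fibulin-5 in elastin assembly, was at 73.1, 61.2 and 63.1 CPM in DMSO A, B and C. It was at 29.3, 57.7 and 28.8 CPM in OCA A, B and C. The groups did not overlap, and the mean fell from 65.8 ± 6.38 to 38.6 ± 16.5 CPM (log2 change -0.77, SE 0.17, adjusted p = 0.0122, edgeR). Leaving out DMSO A (-0.69), OCA A (-0.61) or OCA C (-0.60) ended its call, and so did DESeq2, robust estimation or the density trend (adjusted p = 0.0541). Ltbp1, which stores latent TGF-beta on microfibrils, fell from 117 ± 14 to 89.1 ± 19.6 CPM (log2 change -0.40, SE 0.11, adjusted p = 0.0435, edgeR). Of the fits leaving out a library, only the one without OCA B (-0.59) kept that call. It was also lost with DESeq2 (adjusted p = 0.291), robust estimation (0.29), the length trend (0.0602), the density trend (0.106) and both trends together (0.14). Of 6 relatives of the fibulins and EMILINs with a row, 2 were tested and 0 called: Hmcn1 (20.6 ± 5.37 CPM in DMSO and 11.7 ± 6.51 in OCA) and Fbln7 (15.5 ± 1.64 and 14.9 ± 2.27).

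Of 7 tested genes for folding and cross-linking elastin 1 was called lower and 0 higher (median log2 change -0.11). The shares over all tested genes were 3.03% lower and 2.18% higher. Single calls in lists this small are given for their values and are not a result about the lists. The called gene was the lysyl oxidase-like enzyme Loxl4, which fell from 150 ± 10.6 to 124 ± 12.3 CPM (log2 change -0.28, SE 0.08, adjusted p = 0.0368, edgeR). Loxl4 was no longer called without OCA C (-0.21), DMSO A (-0.23), DMSO B (-0.28) or OCA A (-0.29), nor with the length trend removed (adjusted p = 0.0955). Of 10 cell receptors of elastic fibres, 1 was called higher and 1 lower (median -0.08). Every OCA library lay above every DMSO library for 3 of them, Itgb3, Itgb5 and Itga9 (11.6% of all tested genes). For 1, Ctsa, every OCA library lay below (11.3%). Itgb3, the beta-3 integrin subunit, rose from 110 ± 10.5 to 140 ± 9.30 CPM (log2 change 0.35, SE 0.08, adjusted p = 0.0103, edgeR), a call lost without OCA A (0.33) or DMSO C (0.29). Ctsa, the protective protein of the elastin receptor complex, fell from 141 ± 8.79 to 114 ± 9.57 CPM (log2 change -0.30, SE 0.07, adjusted p = 0.0199, edgeR). Ctsa was no longer called without DMSO B (-0.25), OCA A (-0.26), OCA C (-0.28) or DMSO C (-0.32). Of 8 elastolytic proteases 5 were tested and 1 was called lower, the lysosomal cathepsin Ctsl (162 ± 10.7 to 131 ± 15.2 CPM, log2 change -0.30, SE 0.08, adjusted p = 0.0311, edgeR). Ctsl was no longer called without DMSO C, DMSO B, OCA C or OCA A, with log2 changes between -0.40 and -0.25 over all 6 such fits.

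Matrix proteins that lie beside elastic fibres formed a further list. All 8 tested members of that list had a log2 change below 0 (median -0.35), against 49.8% of all tested genes, and 3 were called lower, against 3.03%. 0 were called higher by edgeR. This list too was chosen with earlier results known, so its shares are not independent evidence. Fn1, Vcan, Tnxb and Hspg2 lie in the longest eighth of tested genes by exonic length, where 12.7% were called lower. Col8a1, a short-chain collagen of vessel walls, fell from 83.3 ± 7.34 to 55.3 ± 3.49 CPM (log2 change -0.59, SE 0.08, adjusted p = 0.000112, edgeR), and its call held without any 1 library. Fn1, fibronectin, on which fibrillin assembly depends, fell from 179 ± 35.6 to 111 ± 50.5 CPM (log2 change -0.69, SE 0.19, adjusted p = 0.0403, edgeR). Without OCA B the Fn1 value was -1.13, and in the other 5 fits that left out a library it was not called. Hspg2, the basement membrane proteoglycan perlecan, fell from 560 ± 121 to 339 ± 157 CPM (log2 change -0.72, SE 0.20, adjusted p = 0.0383, edgeR). Hspg2 was no longer called without DMSO A (-0.54), OCA A (-0.54), OCA C (-0.55) or DMSO B (-0.75). Fn1 and Hspg2 were also not called by DESeq2, by robust estimation or with either density trend removed.

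**Figure D4:**
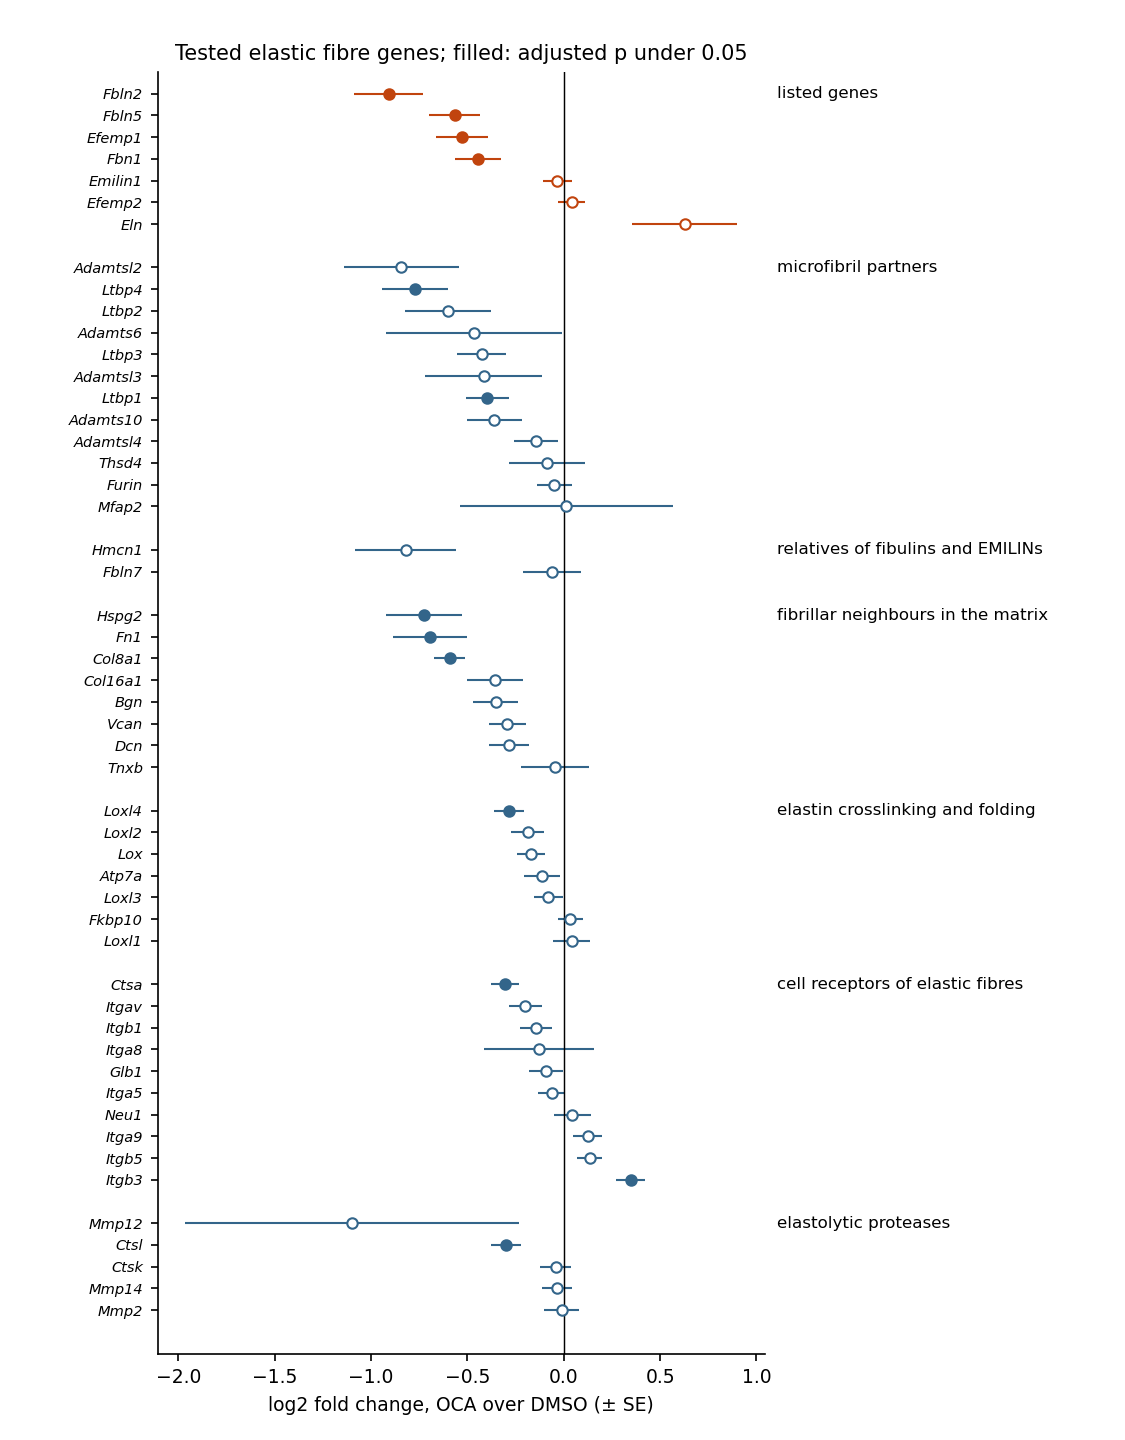
Log2 change (OCA over DMSO) of every tested gene in the lists of elastic fibre genes and their partners, with bars for 1 standard error and 0 marked by a line. Filled points were called at an adjusted p under 0.05. Microfibril partners and matrix neighbours lie mostly below 0, and Itgb3 is the called gene above 0.

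The called and the other tested genes occupied different lengths of the genome. By genomic span (from the table's start to its end), the 4 called members had the 4 longest spans of the 7 tested: 59.8 kb for Fbln2, 72.6 kb for Fbln5, 73.5 kb for Efemp1 and 206 kb for Fbn1. Eln spans 44.7 kb, Emilin1 7.49 kb and Efemp2 7.12 kb. When all tested genes were split into 8 equal groups by span, the share called lower was 5.49% in the seventh, which holds Fbln2, Fbln5 and Efemp1, and 7.76% in the eighth, which holds Fbn1. It was 1.77% in the second, which holds Efemp2 and Emilin1. By exonic length, 12.7% of the longest eighth was called lower, with a median log2 change of -0.14; that eighth holds Fbln5 and Fbn1. Fbln2 was in the seventh eighth of length (3.85% called lower) and Efemp1 in the third (1.14%). With the trend on genomic span removed, a setting added after the data were seen, all 4 genes were still called lower, among 2.54% of all genes (log2 changes of -0.85 for Fbln2, -0.50 for Fbln5, -0.47 for Efemp1 and -0.37 for Fbn1). With the exonic length trend removed, Fbln2 (-0.85), Fbln5 (-0.47) and Efemp1 (-0.54) were called and Fbn1 was not, with 1.79% of all genes called lower.

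**Figure D5:**
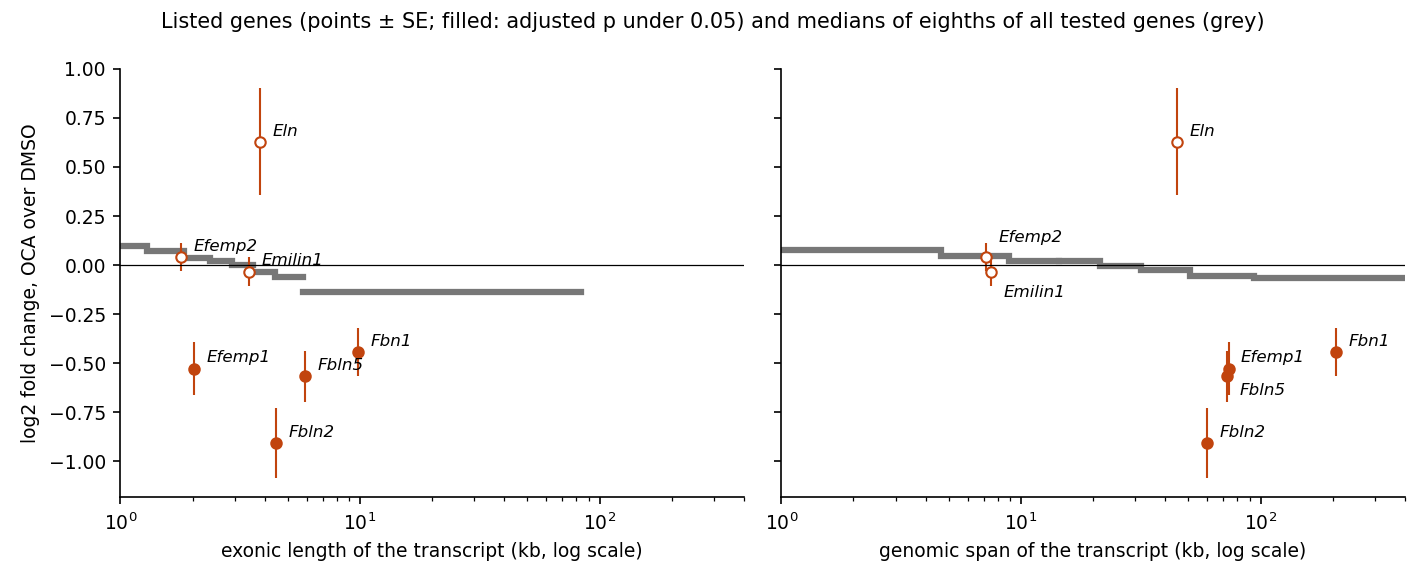
Log2 change (OCA over DMSO) of the 7 tested elastic fibre genes against exonic length and against genomic span in kilobases (log axes), with whiskers for 1 standard error and grey lines for the median of each eighth of all tested genes. The 4 called genes have the longest spans of the 7, and the medians of all genes fall from the shortest to the longest eighth on both axes.

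The cells carried the markers of their label. The 11 stellate markers summed to between 1923 and 2282 CPM in the OCA libraries and between 2144 and 2360 in the DMSO libraries. None was called higher (2.18% of all tested genes) and 2 were called lower, Reln and Rgs5 (3.03%), with a median log2 change of 0.08. In 4 of the 11, Lrat, Des, Colec11 and Cygb, every OCA library lay above every DMSO library (11.6% of all tested genes). In 2, Reln and Rgs5, every OCA library lay below (11.3%). Of 8 markers of activated myofibroblasts 1 was called lower, Col1a2 (median -0.16). These 8 were also abundant, with sums of 2339 to 2846 CPM in the OCA libraries and 2580 to 3044 CPM in the DMSO libraries. Reln was no longer called without DMSO A, OCA C or OCA A, and the same 3 and DMSO B ended the calls of Rgs5 and Col1a2. The Reln call was also lost with DESeq2 (adjusted p = 0.276), robust estimation (0.364) and both density trends, and robust estimation ended those of Rgs5 (0.0572) and Col1a2 (0.058). Rgs5 was not called with either density trend. The 8 smooth muscle markers summed to 209 to 215 CPM with OCA and 203 to 223 CPM with DMSO. Most of that was Smtn, with a mean of 167 CPM in each group, and 5 of the 8 had a mean under 1 CPM. Hepatocyte markers summed to at most 6.53 CPM, endothelial markers to at most 7.28 and macrophage and leukocyte markers to at most 11.6, in any library.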

How the data were processed

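RNA was measured in 6 libraries of mouse hepatic stellate cells, 3 per group, extracted with Trizol and RNeasy micro columns and made into libraries with NEBNext Ultra reagents, per the labels' protocols. The submitters' processing notes name mm10, STAR and HOMER. No strand setting or version was found in the sources. The authors deposited 1 table of exon counts for 24940 genes, treated here as estimated counts, since 26.5% to 29.8% of the values per column were not whole but multiples of 0.5. They were rounded (ties to even) for tests. No count column was left out.

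Groups were compared in R 4.3.3 with the two-sided quasi-likelihood test of edgeR 4.0.16, after filterByExpr and TMM scaling, without a block. A floor of 3 counts is 0.181 to 0.251 CPM per library. Every pair of libraries within a group differed beyond sampling noise. Alternatives used DESeq2 1.42.0 and limma 3.58.1, and the fit was tested on simulated data. The 10 genes are described in any case. From each other list the genes past the threshold, or up to 2 with the highest mean CPM, are named for their values, and the 3 nearest profiles of each called gene. The members and lists were chosen with earlier results of these data known. Sequences come from RefSeq, GRCm38.p6, and exons from GENCODE M21. Intervals for genes with few counts are exact and were computed with scipy 1.17.1.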

Additional observations from a re-analysis of the deposited data

How the results depend on the processing

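With 22 alternative settings, 4 listed genes were called lower in 10 of the 16 that did not leave out a single library. Of the other 6, listed genes called lower numbered 0 with DESeq2, robust estimation or a test against a fold change of 1.5 (edgeR; at an unadjusted p under 0.05, 4, 1 and 1), 1 with the density trend, 1 with the length and density trend and 3 with the length trend. Leaving out 1 library gave 1 to 4: 4 without OCA B, 3 without DMSO C and 1 without any of the other 4 libraries. Over all genes, 384 were called lower and 276 higher. Lower calls numbered 703 with no filter on low counts, 605 without OCA B and DMSO A, 227 with the length trend, 255 with the length and density trend and 0 with the 1.5-fold test (40 at an unadjusted p under 0.05), where 38 were higher. Leaving out 1 library gave 104 to 758 lower and 161 to 363 higher. Higher calls were 41.8% of all calls, 62.6% with the length trend, 57.1% with the length and density trend and 52.5% with the genomic span trend. The log2 change of Efemp2 turned to -0.0177 without OCA B and DMSO A, -0.032 with the density trend and -0.0434 with the length and density trend, and lay between -0.0142 (without DMSO A) and 0.114 with 1 library left out. That of Emilin1 lay between -0.092 and 0.0362, above 0 without OCA A (0.0362) or DMSO B (0.0078). The cause of these changes was not tested. With the replicate letter as a replicate block, 306 genes were called higher and 508 lower, and 4 listed genes were lower. Same-letter libraries deviated together with correlations of 0.0077, -0.0465 and 0.0759, and OCA B correlated best with DMSO A (0.101), so the letters were not taken as pairs. Counts near 0 limit Fbln1, Fbn2 and Mfap4.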

Other observations

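The ratio of Eln to genes of its scaffold is given as values only, since it was chosen after its values were seen, restates the levels above and was not tested. Per kilobase, Eln stood at 0.0138, 0.0147 and 0.0220 of the level of Fbn1 in DMSO A, B and C, and at 0.0435, 0.0281 and 0.0350 in OCA A, B and C. Every OCA library lay above every DMSO library. Relative to Fbln5, Eln stood at 0.0719 ± 0.0118 with DMSO and 0.171 ± 0.0355 with OCA (SD, n = 3), again with no overlap. Eln itself was not called, and its counts were at most 75 in a library. Fbn1 relative to Emilin1 overlapped between the groups (0.670 ± 0.105 with DMSO and 0.503 ± 0.0781 with OCA).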
